A study of Mus musculus with 6 samples.

Results

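The 10 genes described here encode structural maintenance of chromosomes (SMC) complexes other than cohesin. They are *Smc2* and *Smc4*, *Ncapd2*, *Ncapg* and *Ncaph* of condensin I, *Ncapd3*, *Ncapg2* and *Ncaph2* of condensin II, and *Smc5* and *Smc6* of the SMC5/6 complex. They were picked by symbol, as subunits of these complexes, and all 10 were found among the 23420 gene symbols of the count tables. They were compared between wild type (WT) and *Patz1* knockout (KO) mouse embryonic stem cells (ESCs) by RNA-seq, with 3 libraries of each genotype. Both genotypes were of the E14 line and were grown with LIF and with inhibitors of MEK and GSK3. The KO was made with CRISPR/Cas9 and a guide RNA against *Patz1*, which encodes a zinc finger protein with a POZ domain. The study raised several KO clones, and the labels do not tell which clone the KO libraries came from, so an effect of the knockout and an effect of a clone cannot be told apart.

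Condensins are rings of a pair of SMC ATPases, SMC2 and SMC4, closed by a kleisin subunit and bound by a pair of HEAT-repeat subunits. Condensin I and condensin II share the SMC pair and differ in the other subunits. They compact chromosomes in mitosis by extruding loops of DNA, condensin II from within the nucleus in interphase and condensin I mostly after the nuclear envelope breaks down. SMC5/6 is a related ring that acts in DNA repair, in the resolution of joined DNA molecules during replication and in the silencing of some extrachromosomal DNA. ESCs divide rapidly, and transcripts of condensin subunits are usually high in dividing cells.

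The libraries held between 37573923 and 47721070 counts in replicates 1 and 2, and 11040756 (WT) and 11420268 (KO) in replicate 3. In replicate 3, *Rn45s*, the ribosomal RNA precursor, took 14.4% of the WT counts and 12.5% of the KO counts, against at most 3.03% elsewhere. *Patz1* itself fell in every KO library, where the normalized counts were 853, 862 and 862, against 1838, 1983 and 1843 in WT (replicates 1 to 3 in order, as in all lists of values that follow). Its log2 fold change was -1.14 (DESeq2 adjusted p 1.58e-26). Normalized counts are read counts divided by a size factor for each library, and log2 fold changes are KO over WT. Counts per gene do not tell which part of the *Patz1* transcript remained. The 10 genes were well covered, with between 694 counts (*Ncaph*, WT replicate 3) and 16309 counts (*Ncapd2*, KO replicate 1) per library.

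None of the 10 genes passed the adjusted p threshold of 0.05 in the DESeq2 Wald test, which compared the genotypes across 15309 genes. In the same test 7.49% of all genes passed, 2.7% higher and 4.78% lower in KO. At an unadjusted p under 0.05 there were 2 of the 10, *Ncapg* and *Ncapd2*, beside 17.2% of all tested genes, and edgeR and limma-voom also found 0 under the adjusted threshold and 2 at an unadjusted p under 0.05. The differences were bounded narrowly. The lowest of the 95% limits of the 10 fold changes was 0.829-fold (*Ncaph*) and the highest was 1.37-fold (*Ncapg*). The fold change was above 1 for 8 of the 10 genes and below 1 for *Smc2* and *Ncaph*. It was above 1 for 7898 of 15309 tested genes. The median log2 fold change was 0.11, against 0.0087 over all tested genes, which include chromosome 11 with a median of -0.27. With the replicate number as a block, a fit that compares each KO library with the WT library of the same number, *Ncapg* and *Ncapd2* passed, both higher in KO. That fit called 14.6% of all genes, 6.68% higher and 7.95% lower. At an unadjusted p under 0.05 it had 5 of the 10, *Smc4*, *Ncapg2* and *Smc6* besides, where 24.4% of all genes were under this value. Every KO library was above every WT library for 3 of the 10 genes and below for 0, where this held for 11.8% and 13.8% of all tested genes. In bulk RNA, a change in the share of cells at one stage of the cell cycle and a change in RNA per cell cannot be told apart.

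**Figure D1:**
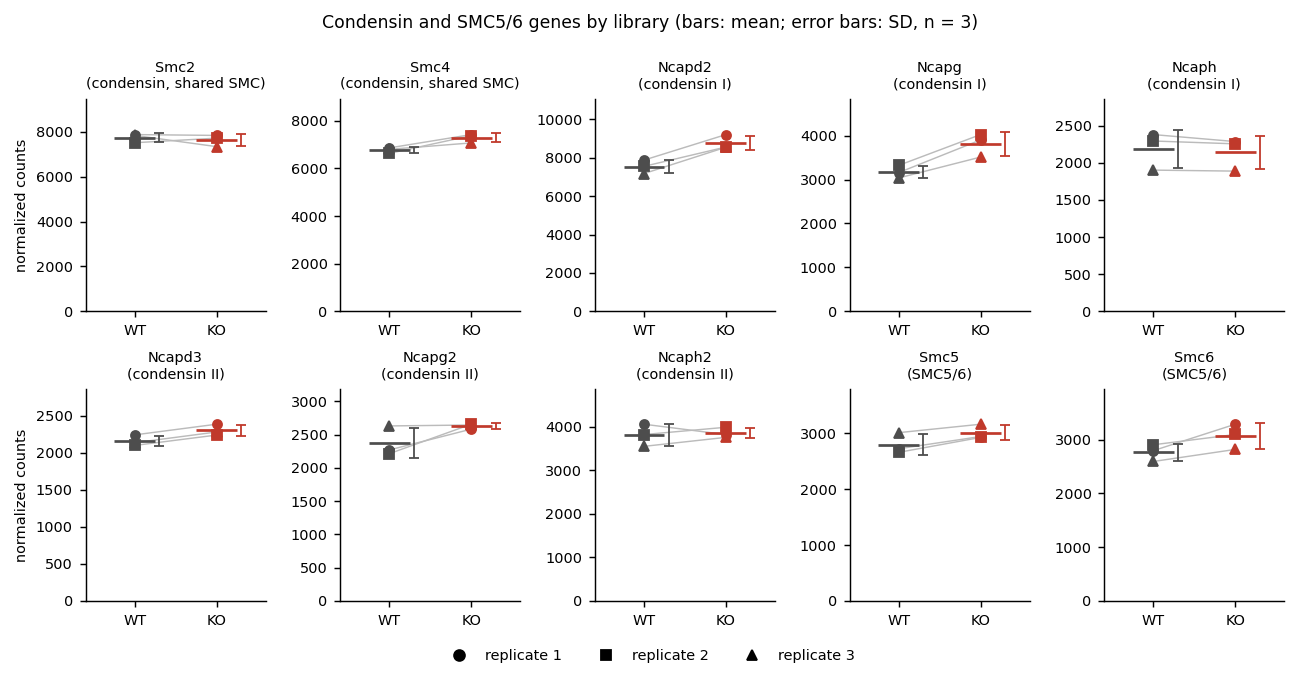
Normalized counts (y axis, from 0) of the 10 genes in each WT and KO library, with a grey line joining libraries of the same replicate number, horizontal bars at the mean and error bars of 1 SD (n = 3). The KO libraries lay above all WT libraries for *Smc4*, *Ncapd2* and *Ncapg*, and the libraries of the genotypes overlapped for the other 7 genes.

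None of the 3 non-SMC subunits of condensin I passed with genotype alone, and their log2 fold changes ran from -0.03 to 0.27. *Ncapg* and *Ncapd2* encode its HEAT-repeat subunits, and *Ncaph* encodes the kleisin that joins them to the SMC pair. The promoters of these 3 genes are shown because *Ncapg* and *Ncapd2* had the highest fold changes of the 10 genes and *Ncaph* the lowest. Each is the window from 250 bases before to 50 bases after the RefSeq transcript start on GRCm38.p6, written 5′ to 3′ on the strand of the gene. Capitals mark matches to CCAAT, the core of the box bound by the factor NF-Y, or its reverse complement ATTGG. They also mark matches to TTTGAA, a core of the cell cycle genes homology region, or its reverse complement TTCAAA. Other forms of that region were not searched. No match to one overlaps a match to the other.
*Ncapd2* (chr6:125191537-125191836, minus strand): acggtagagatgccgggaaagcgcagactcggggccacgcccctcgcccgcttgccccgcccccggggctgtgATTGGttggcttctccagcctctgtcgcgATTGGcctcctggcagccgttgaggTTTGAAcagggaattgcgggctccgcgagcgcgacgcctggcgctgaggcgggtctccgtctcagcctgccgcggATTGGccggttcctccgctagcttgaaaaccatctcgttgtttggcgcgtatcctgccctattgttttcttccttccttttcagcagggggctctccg
*Ncapg* (chr5:45669675-45669974, plus strand): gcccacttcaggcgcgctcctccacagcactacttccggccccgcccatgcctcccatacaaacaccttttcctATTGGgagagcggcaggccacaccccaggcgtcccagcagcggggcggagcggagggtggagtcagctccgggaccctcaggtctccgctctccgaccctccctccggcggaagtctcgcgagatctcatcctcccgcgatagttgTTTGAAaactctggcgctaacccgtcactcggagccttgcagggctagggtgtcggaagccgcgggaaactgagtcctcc
*Ncaph* (chr2:127133905-127134204, minus strand): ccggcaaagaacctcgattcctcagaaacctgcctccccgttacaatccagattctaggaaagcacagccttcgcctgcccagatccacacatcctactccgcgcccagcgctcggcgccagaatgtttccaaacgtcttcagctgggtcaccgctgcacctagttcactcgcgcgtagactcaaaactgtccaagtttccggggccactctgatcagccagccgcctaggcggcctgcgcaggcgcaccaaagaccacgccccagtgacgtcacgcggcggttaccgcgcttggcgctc
The *Ncapd2* window held 3 CCAAT matches and 1 TTTGAA match, the *Ncapg* window held 1 of each, and the *Ncaph* window held neither. A match to CCAAT on either strand was found in 37.4% of 32851 promoters of the same length, a match to TTTGAA in 17.9% and matches to both in 6.95%. Of the members, 9 had an entry in the set of promoters used, and *Smc4* had none there, although its start is annotated. Among the others, *Smc2* held 1 CCAAT and 2 TTTGAA matches, *Ncapg2*, *Smc6* and the more downstream of both *Ncapd3* windows held 1 TTTGAA match each, and *Ncaph2* and *Smc5* held neither. That *Ncapd3* window (chr9:27060166-27060465) and the *Smc5* window (chr19:23272550-23272849) lie inside the annotated genes. They are not at the annotated gene starts, 27030175 for *Ncapd3* and 23273897 for *Smc5*. GGCGGGAA, an E2F-type site found in 2.19% of promoters, occurred once, in *Ncapg2*. GGGAGGG, a G-rich sequence found in 22% of promoters, occurred once, in *Ncapg*. These are matches of letters and not sites of binding.

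*Ncapg* (chromosome 5, 45669919 to 45700546, plus strand, GRCm38) was counted at 3159, 3323 and 3037 in the WT libraries and at 3902, 4024 and 3512 in the KO libraries, as normalized counts. Every KO library was above every WT library, and within each genotype replicate 3 was the lowest. The KO mean (3813 ± 268, SD, n = 3) was 120% of the WT mean (3173 ± 144), which is 0.27 (SE 0.098) on the log2 scale with a DESeq2 adjusted p of 0.0742. With the replicate block the log2 fold change was 0.27 (SE 0.063) and the adjusted p 0.000393. *Ncapg* also passed without replicate 3 of both genotypes, with a log2 fold change of 0.29 (adjusted p 0.0139), where 3.24% of genes were called higher. It passed without KO replicate 3 alone, with 0.32 (adjusted p 0.0267), where 2.33% were called higher. Without any other single library *Ncapg* did not pass, with an adjusted p from 0.151 (without WT replicate 3) to 0.437 (without KO replicate 2). The last bases of *Ncapg* lie across from *Lcorl*, a gene of the opposite strand that covers 13.4% of its exon bases. The difference of *Lcorl*, a gene looked at after the values of *Ncapg* were known, had a log2 fold change of 0.24 (adjusted p 0.627), and it held between 157 and 622 counts per library.

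*Ncapd2* (chromosome 6, 125168007 to 125191701, minus strand) was counted at 7876, 7549 and 7174 in the WT libraries and at 9204, 8556 and 8546 in the KO libraries. The lowest KO library was again above the highest WT library. The KO mean (8769 ± 377) was 116% of the WT mean (7533 ± 351), which is 0.22 (SE 0.089) on the log2 scale with a DESeq2 adjusted p of 0.128. With the replicate block the log2 fold change was 0.22 (SE 0.054) and the adjusted p 0.000969, while without replicate 3 of both genotypes the adjusted p was 0.124. An abundant small RNA of Cajal bodies, *Scarna10*, lies within *Ncapd2* on the same strand and overlaps 237 bases, or 3.78%, of its exons. *Scarna10* held between 3507 and 20529 counts per library, and its log2 fold change of 0.11 (adjusted p 0.763) was looked at after that of *Ncapd2* was known. How reads shared by both genes were counted is not given in the sources used here, and their part in the *Ncapd2* values was not tested.

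*Ncaph* (chromosome 2, 127103809 to 127133954, minus strand) gave 2379, 2292 and 1900 normalized counts in the WT libraries and 2284, 2254 and 1887 in the KO libraries. The genotypes overlapped, and replicate 3 was 18.6% (WT) and 16.8% (KO) below the mean of replicates 1 and 2, a wider gap than that between libraries of the same number (log2 ratios of -0.058, -0.024 and -0.010). The log2 fold change of -0.03 (SE 0.12) had an adjusted p of 0.946 and a 95% interval from 0.829 to 1.15-fold.

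**Figure D2:**
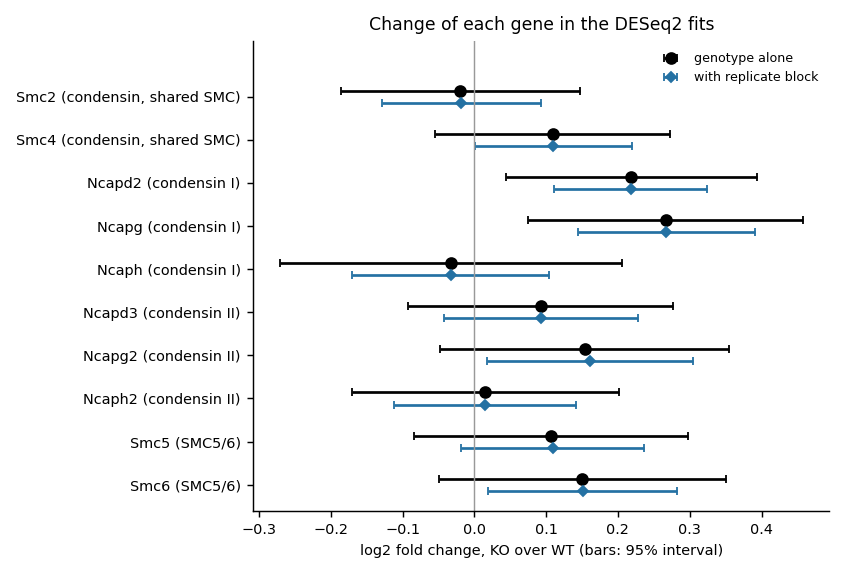
Log2 fold change of each gene, KO over WT (x axis), in the DESeq2 fit of genotype alone (black circles) and in the fit with the replicate block (blue diamonds), with bars for the 95% interval. With genotype alone only the intervals of *Ncapd2* and *Ncapg* lie above 0, and the block narrows the intervals while leaving the estimates in place.

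None of the 3 subunits particular to condensin II passed in the fit of genotype alone or with the block, and their log2 fold changes ran from 0.02 to 0.15. *Ncapg2* (chromosome 12, 116405402 to 116463731, plus strand), the counterpart of *Ncapg*, gave 2270, 2214 and 2631 normalized counts in the WT libraries and 2583, 2657 and 2645 in the KO libraries. WT replicate 3 stood 17.3% above the mean of the other WT libraries and inside the range of the KO libraries, which lay close together. The log2 fold change of 0.15 (SE 0.10) had an adjusted p of 0.504. *Ncapd3* (chromosome 9, 27030175 to 27095315, plus strand), the counterpart of *Ncapd2*, gave 2244, 2101 and 2138 normalized counts in the WT libraries and 2388, 2242 and 2283 in the KO libraries. Its difference was nearly the same in each pair of replicates, with log2 ratios of 0.090, 0.093 and 0.094, and only the lowest KO library reached into the WT range. The log2 fold change of 0.09 (SE 0.094) had an adjusted p of 0.741. *Ncaph2* (chromosome 15, 89355719 to 89372826, plus strand), the kleisin, gave 4063, 3825 and 3554 normalized counts in the WT libraries and 3824, 3993 and 3761 in the KO libraries, with the KO values inside the WT range. Its log2 fold change of 0.02 (SE 0.095) had an adjusted p of 0.969. Exons of *Sco2* and *Tymp* on the opposite strand cover 19.8% and 12.7% of the *Ncaph2* exon bases, and these genes held 0 counts and between 2 and 27 counts per library.

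Of the SMC pair that both condensins share, *Smc4* (chromosome 3, 69004738 to 69034623, plus strand) gave 6862, 6631 and 6801 normalized counts in the WT libraries and 7422, 7378 and 7072 in the KO libraries. All KO libraries were above all WT libraries, yet the log2 fold change of 0.11 (SE 0.083) had an adjusted p of 0.597, and of 0.203 with the block. *Smc2* (chromosome 4, 52439243 to 52488260, plus strand) gave 7873, 7510 and 7836 normalized counts in the WT libraries and 7835, 7713 and 7336 in the KO libraries. These values overlapped, and the log2 fold change of -0.02 (SE 0.085) had an adjusted p of 0.953 and a 95% interval of 0.879 to 1.11-fold.

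Both SMC proteins of SMC5/6 had KO means above the WT means, with overlapping libraries. *Smc6* (chromosome 12, 11265886 to 11319785, plus strand) gave 2795, 2904 and 2593 normalized counts in the WT libraries and 3286, 3095 and 2817 in the KO libraries. Only KO replicate 3 fell below the highest WT library, and replicate 3 was the lowest library of each genotype. The log2 fold change of 0.15 (SE 0.10) had an adjusted p of 0.517. *Smc5* (chromosome 19, 23206451 to 23273897, minus strand) gave 2727, 2662 and 3015 normalized counts in the WT libraries and 2945, 2929 and 3166 in the KO libraries. Here replicate 3 was the highest library of each genotype, and KO was above WT in each pair of replicates. The log2 fold change of 0.11 (SE 0.097) had an adjusted p of 0.691.

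The partners of SMC5/6 comprise the ubiquitin ligase subunit *Nsmce1*, the SUMO ligase *Nsmce2*, the MAGE-type subunit *Nsmce3*, the kleisin *Nsmce4a*, its germline relative *Eid3*, and the localisation factors *Slf1* and *Slf2*. None of these 7 genes passed the threshold with genotype alone, with 1 at an unadjusted p under 0.05, as were 17.2% of all genes. All 7 log2 fold changes were above 0 with genotype alone, from 0.0040 to 0.24, with a median of 0.11, but that of *Eid3* was -0.08 with the block and -0.50 without replicate 3 of both genotypes. *Nsmce2* averaged 969 ± 128 normalized counts (WT) and 1002 ± 105 (KO), and its log2 fold change of 0.04 had an adjusted p of 0.936. *Nsmce4a*, named after its value was seen, gave 2785, 2565 and 2155 normalized counts in the WT libraries and 3032, 3132 and 2688 in the KO libraries. Its log2 fold change was 0.24, with an adjusted p of 0.280 with genotype alone and 0.00832 with the replicate block, and it was the only partner of the 7 that passed with the block, which called 14.6% of all genes. *Eid3* was scarce, with at most 79.3 normalized counts in any library, and KO was above WT in 1 of its 3 pairs of replicates, that of replicate 3.

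To compare levels between genes, normalized counts were divided by the length in kb of all annotated exons of the gene. In WT, *Smc2* (1413 ± 36.5 normalized counts per kb), *Smc4* (1298 ± 23.0) and *Ncapd2* (1202 ± 56.0) stood highest. *Ncaph2* followed with 909 ± 60.6, then *Ncaph* with 509 ± 59.2, *Ncapg* with 449 ± 20.4 and *Smc5* with 413 ± 27.6. The lowest levels were those of *Ncapd3* (274 ± 9.38), *Ncapg2* (239 ± 22.8) and *Smc6* (221 ± 12.6). WT libraries of neighbours in this order overlapped for *Ncaph* and *Ncapg*, for *Ncapg* and *Smc5*, and for *Ncapg2* and *Smc6*. Within each WT library *Ncaph* was above *Ncapg* on this scale, while the order of the other pairs changed between libraries. In KO, *Smc4* and *Ncapd2* both averaged 1399 normalized counts per kb and *Smc2* 1393. The order depends on the length used. Per kb of the longest transcript, *Ncapd2* (1627) and *Smc4* (1567) were above *Smc2* (1432) in WT, and *Smc6* and *Smc5* were level at 493.

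**Figure D3:**
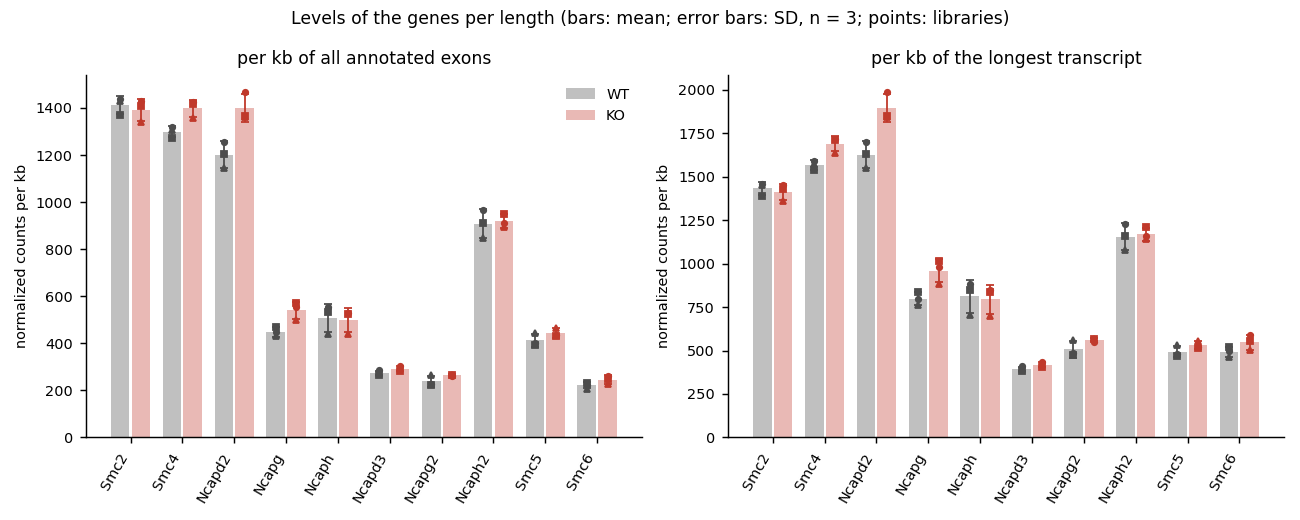
Level of each gene in normalized counts per kb (y axis, from 0), per kb of all annotated exons on the left and of the longest transcript on the right, with bars at the mean, error bars of 1 SD (n = 3) and points for libraries. *Smc2*, *Smc4* and *Ncapd2* are the highest in both panels, and *Ncaph2* is the highest of the condensin II genes.

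Summed per kb, the 3 condensin I genes reached 2160 ± 127 normalized counts in WT and 2436 ± 128 in KO, which is 12.8% above WT, and the libraries did not overlap. The 3 condensin II genes reached 1421 ± 52.3 and 1476 ± 25.7, which is 3.85% above WT, with overlap. The shared SMC pair reached 2711 in WT and 2792 in KO, with overlap, and *Smc5* and *Smc6* together reached 634 ± 15.4 and 689 ± 9.09, without overlap. These sums are descriptions of the chosen genes and carry no test.

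Ratios within a library do not depend on its scaling. The ratio of condensin I to condensin II was 1.52, 1.58 and 1.46 in the WT libraries and 1.73, 1.64 and 1.58 in the KO libraries. All KO values were above all WT values per kb of all exons, by a narrow margin, while per kb of the longest transcript the genotypes overlapped (1.58 ± 0.080 in WT and 1.70 ± 0.081 in KO). The other ratios were computed after the values of the genes were known. The ratio of *Smc2* to *Smc4* was the most even, with 1.09, 1.08 and 1.10 in WT and 1.00, 0.994 and 0.987 in KO, and every KO library was below every WT library. The ratio of *Ncapd2* to its counterpart *Ncapd3* was 4.42, 4.52 and 4.22 in WT and 4.85, 4.81 and 4.71 in KO, again without overlap. The ratio of *Ncapg* to its counterpart *Ncapg2* was 1.96, 2.11 and 1.62 in WT and 2.13, 2.13 and 1.87 in KO, and that of *Ncaph* to *Ncaph2* was 0.571, 0.584 and 0.521 in WT and 0.582, 0.550 and 0.489 in KO. Both of these overlapped between the genotypes.

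Within condensin I, the genes with the highest fold changes of the 10 were also set against the gene with the lowest, a choice that fixes the direction of the ratios, which are given as a description. The ratio of *Ncapd2* to *Ncaph* was 2.28, 2.26 and 2.59 in WT and 2.77, 2.61 and 3.11 in KO, and that of *Ncapg* to *Ncaph* was 0.809, 0.884 and 0.974 in WT and 1.04, 1.09 and 1.13 in KO. Neither overlapped between the genotypes, the first by a narrow margin (2.59 in WT replicate 3 and 2.61 in KO replicate 2), and replicate 3 had the highest value in each genotype. The ratio of *Smc5* to *Smc6*, whose proteins form 1 pair, was 1.80, 1.69 and 2.14 in WT and 1.65, 1.74 and 2.07 in KO, where replicate 3 differed from the other replicates by more than the genotypes differed.

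**Figure D4:**
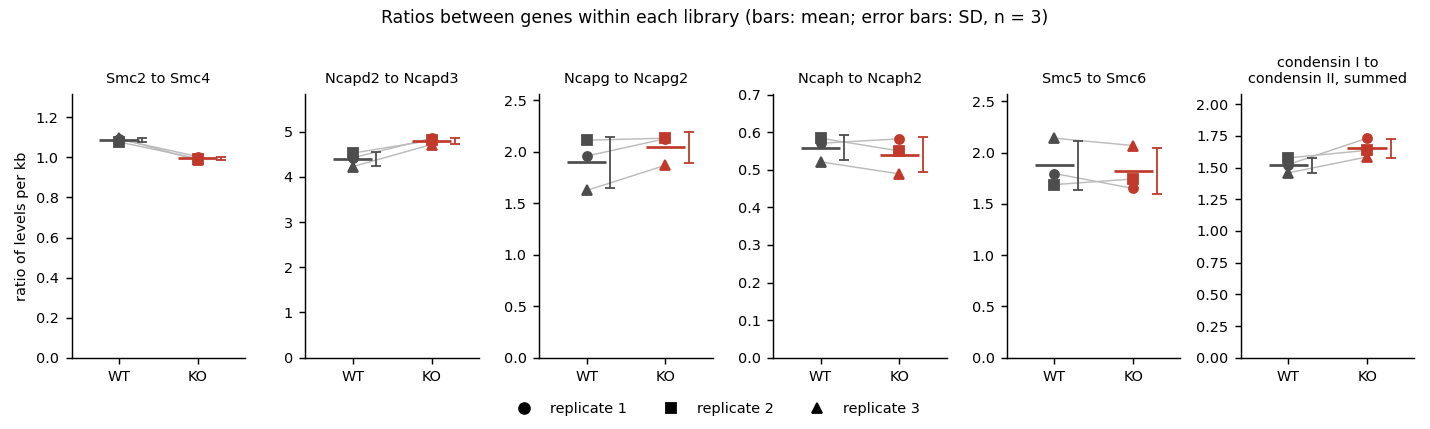
Ratio of levels per kb of all exons within each library (y axis, from 0), with grey lines joining libraries of the same replicate number, bars at the mean and error bars of 1 SD (n = 3). The genotypes are apart for *Smc2* to *Smc4*, *Ncapd2* to *Ncapd3* and the summed condensin I to condensin II ratio, and overlap for the other 3 ratios.

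Of the 10 genes, 5 have a neighbour on the opposite strand whose start lies within 1000 bases of their own, so that both share 1 promoter region. These neighbours were looked up after the values of the genes were known, and none passed the threshold. The gene of the mitochondrial ribosomal protein *Mrpl51* starts 100 bases from *Ncapd2* and had a log2 fold change of 0.04 (adjusted p 0.937), beside 0.22 for *Ncapd2*. *Gen1*, which encodes a nuclease that resolves joined DNA strands, starts 85 bases from *Smc6* and had a log2 fold change of 0.14 (adjusted p 0.663), beside 0.15 for *Smc6*. *Ift80* starts 168 bases from *Smc4*, *Vps26b* 110 bases from *Ncapd3* and *Lmf2* 60 bases from *Ncaph2*, with log2 fold changes of 0.11, 0.11 and -0.02.

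Of 16 genes that regulate condensin or act with it on mitotic chromosomes, 0 passed with genotype alone (DESeq2, with 2 at an unadjusted p under 0.05, where 17.2% of all genes were). The log2 fold change was above 0 for 13 and below 0 for 3, with a median of 0.044. *Mcph1*, an inhibitor of condensin II, averaged 2611 ± 163 normalized counts (WT) and 2788 ± 205 (KO), and its log2 fold change of 0.10 had an adjusted p of 0.764. The kinases *Cdk1* and *Plk1*, which phosphorylate condensin subunits at mitosis, had log2 fold changes of 0.15 (adjusted p 0.638) and 0.03 (adjusted p 0.926). With 1 library left out the values ran from 0.050 to 0.24 for *Cdk1* and from 0.0035 to 0.063 for *Plk1*, and neither gene passed. *Mki67*, which coats mitotic chromosomes, had a log2 fold change of 0.0048 (adjusted p 0.990). *Top2a*, the topoisomerase that decatenates mitotic chromosomes, gave 27249, 21520 and 19679 normalized counts in the WT libraries and 19760, 18945 and 16889 in the KO libraries, so that KO replicate 1 was just above WT replicate 3. Its log2 fold change was -0.30, with an adjusted p of 0.147 with genotype alone, 7.48e-05 with the replicate block, 0.0226 without replicate 3 of both genotypes and 0.0145 without WT replicate 3. Without WT replicate 1, its highest library, the log2 fold change was -0.15 (adjusted p 0.720).

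With the block, 3 of the 16 genes passed, in a fit that called 14.6% of all genes. They were *Top2a* and *Aurkb* (log2 fold change -0.23, adjusted p 0.365 with genotype alone and 0.0124 with the block), both lower in KO, and *Top2b* (0.24, 0.163 and 0.0285), higher in KO. The last 2 were named after their values were seen. *Top2a*, *Aurkb* and *Birc5* are the 3 genes of this list with a log2 fold change below 0, and all 3 lie on chromosome 11, as does *Patz1*. Of 1262 tested genes on that chromosome, 255 were called lower and 14 higher, and the median log2 fold change was -0.27. None of the 10 condensin and SMC5/6 genes lies on chromosome 11 or on X, where 110 of 566 tested genes were higher and 24 lower.

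Among the other members of the SMC family, 1 of 5 passed, where 7.49% of all genes did. *Smc1a*, the cohesin subunit on X, rose with a log2 fold change of 0.49 (adjusted p 9.60e-05), beside 0.09 (adjusted p 0.751) for its partner *Smc3*. *Smchd1*, a noncanonical family member that acts on the inactive X chromosome, had 0.0030 (adjusted p 0.994). *Rad50*, of the MRN repair complex and on chromosome 11, had -0.26, with an adjusted p of 0.135 with genotype alone and 0.00231 with the block. The meiotic *Smc1b* was low in these cells, at 144 ± 22.9 (WT) and 95.4 ± 7.09 (KO) normalized counts, and its log2 fold change was -0.58 (adjusted p 0.0922). *Rad50* and *Smc1b* were named after their values were seen. For both, all KO libraries were below all WT libraries, as for 13.8% of all tested genes and for 561 of 1262 on chromosome 11.

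Genes of proliferation vary with condensin in many tissues. Of 16 genes of replication licensing, cyclins and the spindle checkpoint, 0 passed with genotype alone (DESeq2), 0 had an unadjusted p under 0.05, and the log2 fold changes ran from -0.20 to 0.15 with a median of 0.036. With the block, *Mcm4* (0.15, adjusted p 0.0310) and *Ccne1* (-0.20, adjusted p 0.0177) passed, 2 of 16 where 14.6% of all genes did, both named for that reason, and *Ccne1* also passed without replicate 3 of both genotypes (-0.26, adjusted p 0.0241).

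**Figure D5:**
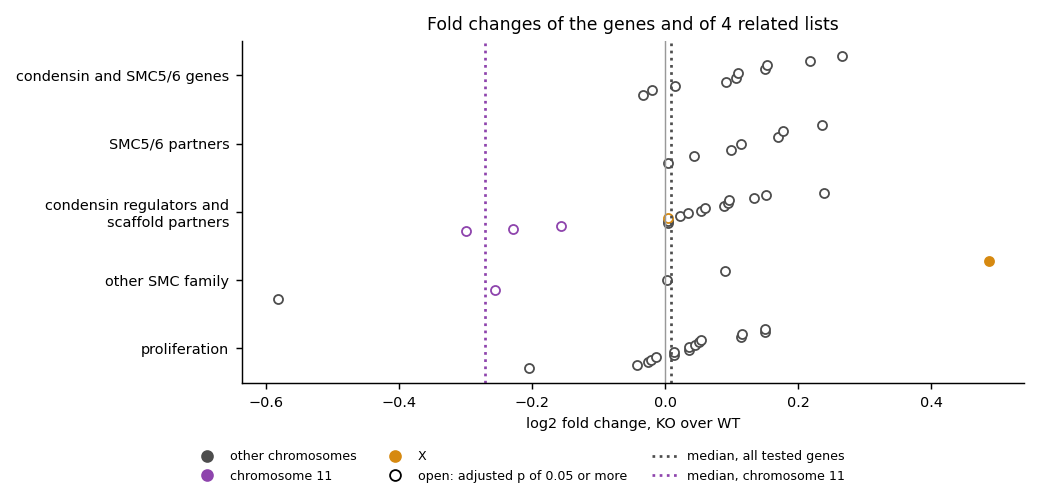
Log2 fold change, KO over WT (x axis), of the 10 genes and of the genes of 4 related lists, coloured by chromosome, with filled points for an adjusted p under 0.05 with genotype alone and dotted lines at the medians of all tested genes and of chromosome 11. *Smc1a* on X is the 1 filled point, and the 4 genes on chromosome 11 lie between -0.30 and -0.16.

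Markers of ESC identity were high in every library, with between 30139 and 36265 normalized counts for *Pou5f1*, and 0 of 7 passed with genotype alone (DESeq2, with 0 at an unadjusted p under 0.05), while *Pou5f1* and *Zfp42* passed with the block, both higher in KO, as were 6.68% of all genes in that fit. Their summed level ran from 100456 to 104338 normalized counts in WT and from 109205 to 111638 in KO, without overlap, and its part in the differences of the 10 genes was not tested. Taken singly, 2 of the 7, *Pou5f1* and *Zfp42*, had all KO libraries above all WT libraries, as did 11.8% of all tested genes. The other ESC markers overlapped, among them *Nanog* (log2 fold change 0.01) and *Klf4* (-0.09). The 5 primitive endoderm markers summed to between 89.7 and 145 normalized counts, and 0 passed (DESeq2, with 0 at an unadjusted p under 0.05 and 0 with the block). Of the 5 trophoblast markers, *Tfap2c* rose (log2 fold change 0.66, adjusted p 0.000919) and *Cdx2* fell (-0.72, adjusted p 0.0350), where 7.49% of all genes passed. *Eomes* (-0.19, adjusted p 0.669) and *Gata3* (0.94, adjusted p 0.209) did not pass, and *Elf5* was at 0 in 3 libraries. The summed level of these markers overlapped between the genotypes. The call of *Cdx2* was lost whichever of the 6 libraries was left out (adjusted p up to 0.291), and that of *Tfap2c* without KO replicate 2 (adjusted p 0.0760). The 5 markers of fibroblasts, which could come from feeder cells, summed to between 84.6 and 110 normalized counts in WT and between 134 and 166 in KO. Most of this was *Thy1*, which rose (0.83, adjusted p 0.0147, but up to 0.248 without 1 library), while *Postn* and *Dcn* were at 0 in every KO library. At these depths the summed primitive endoderm and fibroblast markers were below the level of each of the 10 genes in every library, and *Postn* and *Dcn* had at most 2.74 normalized counts in WT.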

How the data were processed

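Total RNA of E14 ESCs was measured in 3 WT and 3 *Patz1* KO libraries, grouped by sample title. Libraries were TruSeq stranded with RiboZero Gold depletion per the labels, while the study's methods name KAPA kits. The authors deposited raw read counts per gene symbol, 1 file per library, with no normalization. The submitters' processing notes name TopHat2 2.1.1, Bowtie2 2.3.1.0, featureCounts 1.6.2, DESeq2 and mm10. The study's methods give Bowtie 2, in another version than the notes, for mapping to mm10 and DESeq2 for differential expression. The annotation used for counting and the use of strand are not given in the sources used here. Values of overlapping genes are therefore uncertain.

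Genotypes were compared with the two-sided Wald test of DESeq2 1.42.0, the test named in the study's methods, in R 4.3.3. Settings were Benjamini-Hochberg adjustment over all genes, a threshold of 0.05, median-of-ratios size factors, default independent filtering (0.1) and no shrinkage. Intervals are 95% (estimate ± 1.96 SE). The study calls its replicates biological, but the labels name no separate cultures, and p-values measure only the spread between these libraries. Alternatives were edgeR 4.0.16 (quasi-likelihood), limma-voom (limma 3.58.1), TMM size factors, a filter keeping genes with 10 or more counts in 3 or more libraries, omission of independent filtering, the replicate block, and fits without each library or without both shallow libraries (replicate 3).

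The replicate block took libraries with the same replicate number in their titles as pairs. Deviations of libraries from their genotype mean, taken over 11524 genes averaging 50 or more normalized counts, had a Pearson correlation of 0.469 between the WT and KO libraries numbered 1, of 0.619 between those numbered 2 and of 0.684 between those numbered 3. Libraries of different numbers were not correlated for comparison. Deviations from a mean of 3 libraries are tied to one another, and replicate 3 stood apart in both genotypes. This alone can raise the correlations of replicates 1 and 2, so the values do not establish the pairing. Each pair of libraries differed by more than sampling noise (lowest chi-square per degree of freedom 9.50). Code was tested on simulated data.

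Positions and exon lengths came from GENCODE M21 on GRCm38, the build also called mm10, and promoters from RefSeq on GRCm38.p6. *Nsmce3*, *Slf1* and *Slf2* are listed as *Ndnl2*, *Ankrd32* and *Fam178a*. Tables were made with Python 3.11.15 and pandas 2.3.3, and plots with matplotlib 3.10.9. The 10 genes were picked by symbol and not by a threshold on their values, but they, the lists and the tests were chosen with earlier results of these data known. By rule the text names the 10 genes, *Patz1*, list genes under the threshold, and *Nsmce2*, *Mcph1*, *Top2a*, *Cdk1*, *Plk1* and *Mki67*. Other names were chosen after their values were seen.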

Additional observations from a re-analysis of the deposited data

How the results depend on the processing

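The number of the 10 genes under the threshold was 0 with genotype alone, with edgeR, limma-voom, TMM size factors, the count filter and no independent filtering. It was 2 (*Ncapd2* and *Ncapg*) with the replicate block, 1 (*Ncapg*) without replicate 3 of both genotypes, and 0 to 1 when 1 library was left out, the 1 being *Ncapg* without KO replicate 3. The replicate block changed the call of no other gene of the 10. Over all genes the count was 1146 with genotype alone and 2131 with the replicate block, 1126 of them called in both, and it ran from 583 (without KO replicate 1) to 1341 (without WT replicate 3) when 1 library was left out. It was 605, 664 and 590 without WT replicate 1, WT replicate 2 and KO replicate 2, so fewer libraries gave fewer calls where a deep library was removed. Genes near 0 changed sign. Without replicate 3 of both genotypes the log2 fold change was 0.016 for *Smc2* and -0.013 for *Ncaph2*. With 1 library left out it ran from -0.041 to 0.0095 for *Smc2*, -0.12 to 0.047 for *Ncaph*, -0.033 to 0.062 for *Ncaph2*, -0.051 to 0.11 for *Nsmce2* and -0.028 to 0.039 for *Mki67*, and none of these values passed. *Cdx2* lost its call whenever 1 library was left out, *Thy1* in each such fit but that without WT replicate 3, and *Tfap2c* without KO replicate 2 (adjusted p 0.0760). The cause was not tested. Replicate 3 was both shallower and richer in *Rn45s* and *Lars2* in each genotype, so these cannot be told apart.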
